A study of Arabidopsis thaliana with 24 samples.

Results

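The 28 genes described here had a wide range of time means over 20 h in the Arabidopsis thaliana shoot apex and a narrow one in leaves. They were chosen on these measured values, and not every member kept the pattern in each replicate: 16 of 28 reached the apex ratio in both replicates, and 8 of 28 stayed within the leaf ratio in both. For each gene the 2 replicates were averaged at each of 6 times in each tissue, and a gene was kept when its mean over the times was at least 5 FPKM (fragments per kilobase of transcript, scaled to library size) in both tissues, its highest apex time mean was at least 1.8 times the lowest, and its highest leaf time mean was at most 1.4 times the lowest. Of 33322 genes in the table, 10450 met the floor of 5 FPKM in both tissues. Among these, 643 met the apex ratio and 5545 met the leaf ratio, and 28 met both. The more frequent pattern among genes that varied in the apex was to vary in leaves too: 543 of the 643 also had a leaf ratio of at least 1.8. Because the apex and leaf ratios chose the members, they are given below as description, with no test.

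Transcripts were sequenced in dissected shoot apices and true leaves of the Columbia accession Col-0, for which the labels name no mutation or transgene. Plants grew for 14 days in 12 h of light and 12 h of darkness, then went into constant, dimmer light, and were sampled every 4 h from 90 to 110 h after that transfer, so all 12 groups share the constant light. The times are written ZT90 to ZT110, and counted modulo 24 they fall at hours 18, 22, 2, 6, 10 and 14 of the entrained day. Each of the 12 groups had 2 libraries from polyA RNA, each made from a pool of 6 to 10 frozen and dissected seedlings. The series describes independent experiments without saying which replicate number came from which, so the p-values measure the spread between these libraries, which may be partly technical. The deposited column names hold the word mock, but the labels describe no treatment.

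The circadian clock of plants is a network of transcription factors that keeps a daily rhythm going in constant light and sets the time of many output genes. Output rhythms are known to differ between organs, since a gene's promoter is read by tissue factors as well as by clock factors. The shoot apex holds the meristem and the youngest leaf primordia, whereas true leaves are dominated by green mesophyll.

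The labelled tissues carried their markers. All 6 apex markers (STM, KNAT1, CUC2, LSH4, ANT, GIF1) were higher in every apex library than in any leaf library, and STM stood at 20.6 to 34.0 FPKM in the apex against 0 to 0.199 in leaves. The 6 leaf markers summed to 1899 to 2743 FPKM in the apex and to 15031 to 24469 in leaves, and LOX2 stood in the apex at 1.29% of its leaf level. The summed apex markers varied 1.25-fold and the summed leaf markers 1.26-fold between apex times. Most of the leaf sum was RBCS1A, which varied 1.32-fold, while CA1 varied 3.34-fold, CAT2 3.195-fold, LOX2 2.33-fold, RBCS1B 2.27-fold and RCA 1.5-fold. Depth is not given by the table; the size of the smallest FPKM steps points to 7.41 to 15.4 M reads in apex libraries and 11.8 to 15.4 M in leaf libraries, and 13 of the 28 members had under 100 estimated reads in at least 1 apex library. The lowest was HB2 with 24.7.

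A single apex library stood apart. The apex library ZT90 replicate 2, the shallowest, held 5799.6 FPKM of AT3G41768, an 18S ribosomal RNA gene, whereas the other 11 apex libraries held 73.6 to 335 FPKM and the leaf libraries 54.05 to 87.7 FPKM. Without that library the apex ratio of AT3G41768 was 2.17 in place of 28.1, with its highest time mean at ZT102. The number of members was 28 with this library left out, with 23 shared, and 102 when its partner, ZT90 replicate 1, was left out so that this library alone stood for ZT90. It was 49 without the apex library ZT106 replicate 1 and 17 without the leaf library ZT94 replicate 2. GLT1, CDSP32 and NDF5 stayed members whichever of the 24 libraries was left out, 20 members were lost in 1 to 6 of the 24 settings, and TCH3, VSP2, ERD6, RGF9 and AT3G11280 were lost in more than 6. Rescaling the libraries to a common median gave 24 genes, 17 of them shared.

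**Figure D1:**
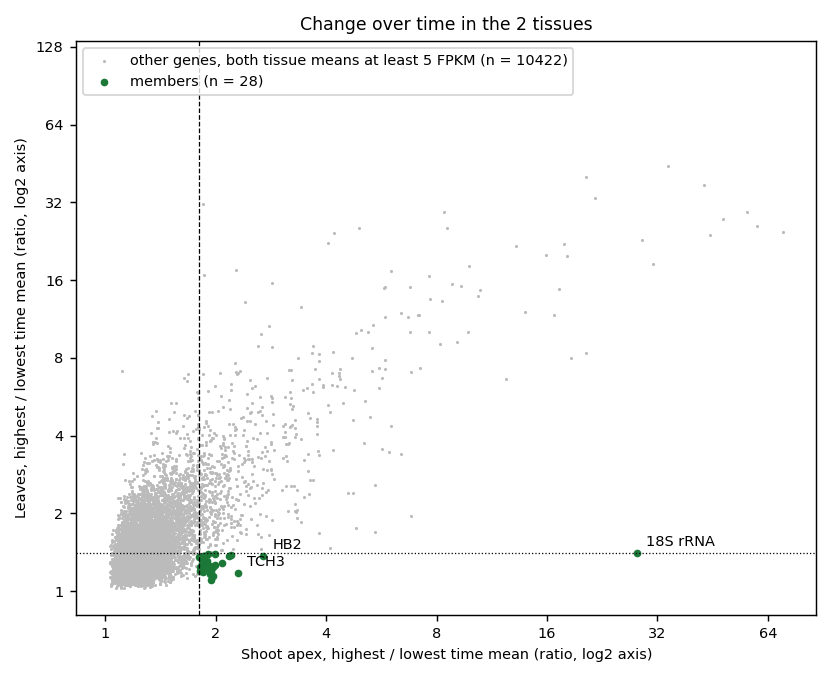
Highest over lowest time mean of each gene with at least 5 FPKM in both tissues, in the shoot apex (horizontal, log2 axis) and in leaves (vertical, log2 axis), with the thresholds of 1.8 (dashed) and 1.4 (dotted). The 28 members lie in the lower right corner, most of them close to the dashed line, and the 18S ribosomal RNA gene lies alone at 28.1.

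Members were found at every apex peak time. The apex mean was highest at ZT90 in 4 members, at ZT94 in 6, at ZT98 in 4, at ZT102 in 9, at ZT106 in 4 and at ZT110 in 1. Of the 643 genes that met the apex ratio whatever they did in leaves, 6.84% peaked at ZT90, 19.6% at ZT94, 19.6% at ZT98, 19.8% at ZT102, 22.4% at ZT106 and 11.8% at ZT110. The sizes of these groups depended on single libraries. Without ZT90 replicate 1 they were 6, 16, 6, 54, 8 and 12 in the same order, without ZT90 replicate 2 they were 8, 6, 4, 6, 3 and 1, and over all 24 left-out libraries the ZT102 group ranged from 6 to 54, the ZT94 group from 2 to 16 and the ZT110 group from 0 to 12. The apex ratio ranged from 1.801 (AT5G44600) to 2.696 (HB2) among the 27 protein-coding members, with a median of 1.92 over all 28, and the leaf ratio from 1.11 (TGG1) to 1.399 (AT3G41768) with a median of 1.26. A 24 h wave fitted to the same values was called in the apex for 17 of 28 members and not for 11, and in leaves for 5, while 13% of all tested genes were called in the apex and 40.9% in leaves. The rule chose high apex and low leaf ratios in these values, so nothing is read from these counts. The apex replicates of 3 members (ERD6, VSP2 and TCH3) had a negative correlation over the times.

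**Figure D2:**
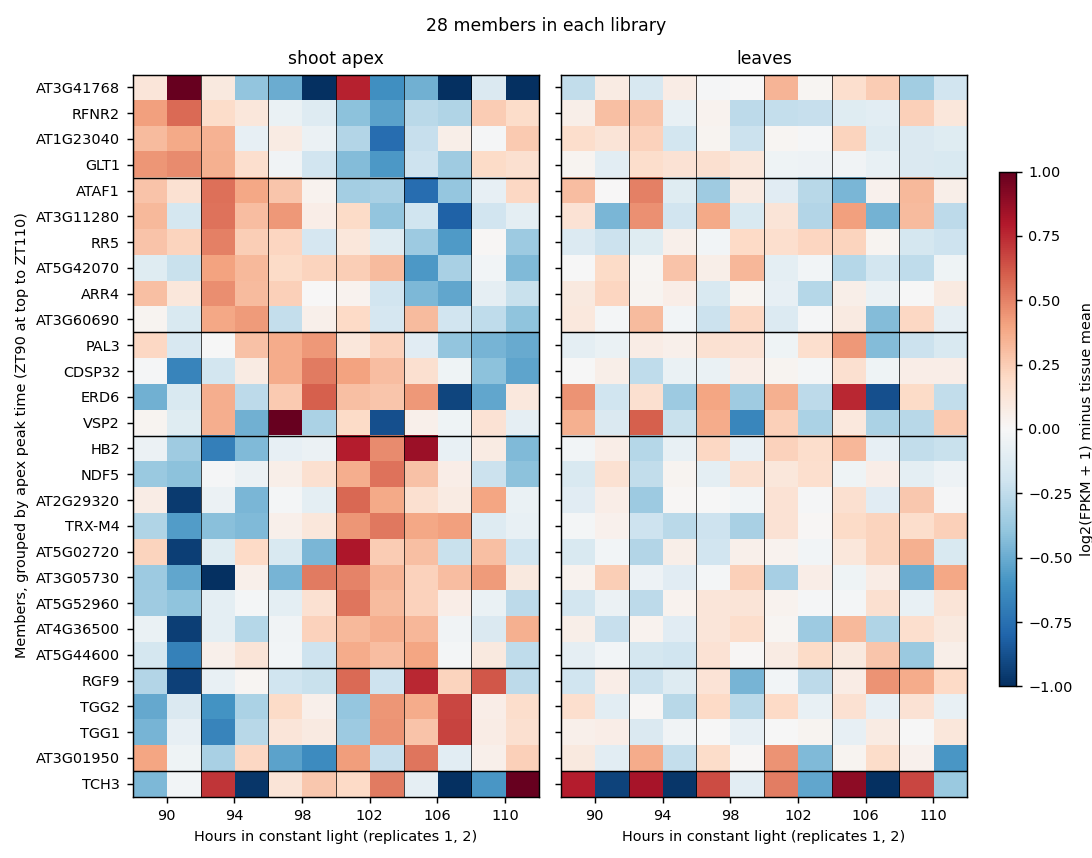
Level of the 28 members in each of the 24 libraries as log2(FPKM + 1) minus the gene's mean in that tissue (colours end at -1 and 1), with replicates 1 and 2 side by side at each time and horizontal lines between apex peak times. In the apex the red cells move to the right from the top to the bottom rows, the order by which rows were sorted, while most leaf cells are paler. TCH3, ERD6 and AT3G11280 have the widest gaps between the leaf replicates, at 1.45, 0.77 and 0.61.

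The group with its apex peak at ZT90, in the subjective night, held GLT1, an enzyme of nitrogen assimilation, and RFNR2, a ferredoxin NADP reductase. GLT1 (AT5G53460, chr5:21700187-21710296), the NADH-dependent glutamate synthase that makes glutamate from glutamine in tissues with little photosynthesis, had apex values, replicate 1 then replicate 2, of 114 and 117 at ZT90, 107 and 94.1 at ZT94, 81.8 and 73.1 at ZT98, 61.7 and 55.9 at ZT102, 72.4 and 65.03 at ZT106 and 95.7 and 93.6 at ZT110 FPKM. Its leaf values were 52.4 and 47.7 at ZT90, 58.2 and 57.0 at ZT94, 57.5 and 55.9 at ZT98, 49.9 and 49.5 at ZT102, 50.05 and 48.7 at ZT106 and 46.4 and 46.2 at ZT110 FPKM. Both apex replicates were thus highest at ZT90 and lowest at ZT102, and both leaf replicates were highest at ZT94, 4 h later, over a smaller range. RFNR2 (AT1G30510, chr1:10806930-10809188), the root-type ferredoxin NADP reductase that passes electrons from NADPH to ferredoxin in plastids without photosynthesis, was at 33.98 and 38.01 at ZT90, 28.96 and 27.6 at ZT94, 24.1 and 23.2 at ZT98, 18.8 and 17.2 at ZT102, 20.9 and 20.4 at ZT106 and 30.5 and 28.98 at ZT110 FPKM in the apex. In leaves it ranged from 6.601 to 10.2 FPKM, and its leaf ratio of 1.39 was just inside the threshold, with the leaf maximum also at ZT90. The summed apex markers, whose highest apex time mean was also at ZT90, correlated over the 12 apex libraries with GLT1 at 0.847 and with RFNR2 at 0.811; their part in these courses was not tested. Over the 12 apex libraries GLT1 and RFNR2 had a Pearson correlation of 0.97, and over the 12 leaf libraries of -0.113; the libraries share their times, and no p is given.

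Of 14 genes of nitrate uptake, nitrate reduction, ammonium transport and glutamine, glutamate and asparagine synthesis at the floor, taken from the list of nutrient genes, 7 had their apex peak at ZT90, 3 at ZT94, 2 at ZT106 and 2 at ZT110. That list held 50 genes at the floor. The share of all genes at the floor with a peak at ZT90 was not counted, and of the 643 genes that met the apex ratio it was 6.84%. The list was chosen with earlier results known, so nothing is read from the 7. At ZT90, the nitrate reductase genes NIA1 and NIA2 had apex ratios of 3.21 and 2.41 and leaf ratios of 7.21 and 3.65. Nitrite reductase NIR1 had 2.85 in both tissues and the nitrate transporter NRT1.1 had 1.96 and 1.81. GLU1, the ferredoxin-dependent glutamate synthase of green leaves, had an apex ratio of 1.6 and a leaf ratio of 2.19. Glutamine synthetases, which supply the glutamine, peaked elsewhere: GLN2 and GLN1;2 at ZT94, GLN1.3 at ZT106 and GLN1;1 at ZT110, with apex ratios of 1.31, 1.47, 1.19 and 1.44 and leaf ratios of 1.57, 1.28, 1.48 and 1.73. The ammonium transporters AMT2 and AMT1;1 peaked at ZT106 and ZT110. Of the list of nitrate, sulfate, iron and phosphate genes, GLT1 was the 1 member.

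The promoter of RFNR2 is shown because it holds a form of the CCA1 binding site, the sequence to which the morning clock repressor CCA1 binds. The window runs 5′ to 3′ from 250 bases before the annotated start to 50 after it, read from RefSeq's TAIR10.1, and capitals mark AAAAATCT.
RFNR2, chr1:10809139-10809438, minus strand: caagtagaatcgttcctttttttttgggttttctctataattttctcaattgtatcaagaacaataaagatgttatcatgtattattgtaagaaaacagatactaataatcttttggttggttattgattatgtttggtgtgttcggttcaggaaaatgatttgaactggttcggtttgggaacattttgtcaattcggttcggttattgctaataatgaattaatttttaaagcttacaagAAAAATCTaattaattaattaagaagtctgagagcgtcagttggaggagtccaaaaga
The AAAAATCT letters begin 8 bases before the start. On either strand they are found in 8.2% of the 19113 promoters of tested protein-coding genes searched, and in 1 of the 26 member promoters searched (3.85%).

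The other protein-coding member with its peak at ZT90 was AT1G23040, annotated as a hydroxyproline-rich glycoprotein of the cell wall. It stood at 8.84 and 9.26 at ZT90, 9.03 and 6.45 at ZT94, 7.33 and 6.58 at ZT98, 5.43 and 3.65 at ZT102, 5.71 and 7.21 at ZT106 and 6.84 and 8.46 at ZT110 FPKM in the apex and ranged from 4.302 to 6.24 FPKM in leaves.

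At ZT94, the last hours of the subjective night, the peak belonged to 2 type-A response regulators, which are induced by cytokinin and dampen its signal. ARR4 (AT1G10470, chr1:3441988-3444360) was at 122 and 107 at ZT90, 137 and 123 at ZT94, 117 and 99.1 at ZT98, 101 and 86.1 at ZT102, 72.2 and 68.6 at ZT106 and 92.7 and 84.5 at ZT110 FPKM in the apex. In leaves it was at 91.0 and 98.8 at ZT90, 86.7 and 89.1 at ZT94, 76.4 and 86.9 at ZT98, 80.5 and 69.7 at ZT102, 88.5 and 81.5 at ZT106 and 84.8 and 90.9 at ZT110 FPKM, with both leaf replicates highest at ZT90. ARR5, named RR5 in the annotation (AT3G48100, chr3:17758427-17760950), was at 20.9 and 19.97 at ZT90, 24.5 and 20.3 at ZT94, 19.9 and 15.01 at ZT98, 18.4 and 15.4 at ZT102, 13.01 and 11.2 at ZT106 and 17.1 and 13.001 at ZT110 FPKM in the apex. In leaves RR5 was at only 4.302 to 6.17 FPKM, with its highest mean at ZT102, later than in the apex. ARR4 and RR5 had a correlation of 0.958 over the 12 apex libraries and of -0.526 over the 12 leaf libraries. Both genes were higher in replicate 1 of the apex, by 0.17 and 0.25 (limma adjusted p = 0.0273 and 0.00939). The apex correlation also holds that difference in level.

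The 6 type-A regulators that met the floor, of 8 tested, all had their highest apex mean at ZT94. How many of all genes at the floor peaked at ZT94 was not counted, and of the 643 genes that met the apex ratio 19.6% did. The list was chosen with earlier results known, and ARR4 and RR5 are themselves members, so nothing is read from the 6. ARR6 and ARR8 also exceeded the apex ratio, at 2.27 and 2.09, but had leaf ratios of 2.26 and 2.07. ARR7 stood at 1.56 in the apex and 1.59 in leaves, and ARR9 at 1.37 and 2.2. Cytokinin receptors and the B-type regulators that carry the signal varied less in the apex: the ratio there was 1.05 for AHK2, 1.09 for AHK3 and 1.3 for AHK4, and 1.04, 1.25 and 1.24 for ARR1, ARR10 and ARR12.

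The ZT94 group also held 2 transcription factor genes. ATAF1 (AT1G01720), a NAC factor of stress and abscisic acid responses, was at 15.2 and 13.8 at ZT90, 18.5 and 16.3 at ZT94, 15.1 and 12.6 at ZT98, 9.47 and 9.58 at ZT102, 6.82 and 9.15 at ZT106 and 11.6 and 14.3 at ZT110 FPKM in the apex. Its apex ratio was 2.18, and its leaf values of 9.30 to 19.03 FPKM included a replicate 1 course with a ratio of 2.05. AT3G11280, a MYB-like factor, was at 34.4 and 24.1 at ZT90, 40.2 and 33.98 at ZT94, 37.2 and 28.6 at ZT98, 31.3 and 20.5 at ZT102, 23.61 and 15.2 at ZT106 and 23.8 and 25.5 at ZT110 FPKM in the apex, and in each tissue replicate 1 was the higher at 5 or more of the 6 times. AT3G60690 (SAUR59), of a family of small auxin-induced proteins, was low in the apex, at 3.58 to 7.12 FPKM, and at 10.8 to 18.8 in leaves. AT5G42070, whose product is uncharacterized, peaked at ZT94 in both apex replicates, at 13.5 and 12.7 FPKM, and was lowest at ZT106 in replicate 1, at 6.38 FPKM, and at ZT110 in replicate 2, at 7.10.

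**Figure D3:**
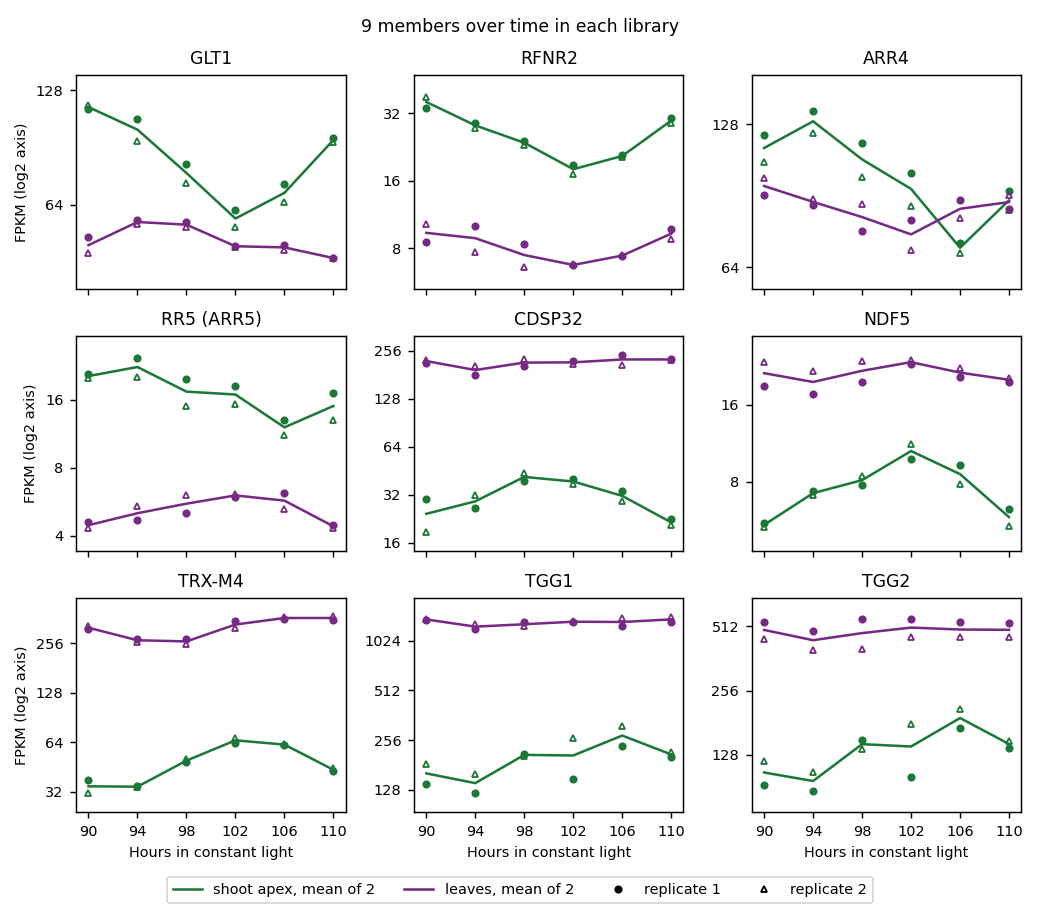
FPKM (log2 axis) of 9 members against hours in constant light, with filled circles for replicate 1, open triangles for replicate 2 and lines through the mean of the 2. Apex courses (green) vary from GLT1 with its high at ZT90 to TGG1 and TGG2 with theirs at ZT106, and the leaf courses (purple) span at most a 1.39-fold range of time means.

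At ZT98, early in the subjective day, the members were CDSP32, PAL3, ERD6 and VSP2. CDSP32 (AT1G76080), a thioredoxin-like protein of plastids that is known for drought responses, was at 29.97 and 18.7 at ZT90, 26.4 and 31.9 at ZT94, 39.3 and 43.6 at ZT98, 40.1 and 37.5 at ZT102, 33.8 and 29.3 at ZT106 and 22.4 and 20.6 at ZT110 FPKM in the apex. Its leaf level was far higher, at 181 to 242 FPKM, and its leaf ratio was 1.16. PAL3 (AT5G04230), a phenylalanine ammonia-lyase at the entry to phenylpropanoid synthesis, was at 6.62 and 4.88 at ZT90, 5.58 and 7.05 at ZT94, 7.50 and 7.89 at ZT98, 6.14 and 6.71 at ZT102, 5.10 and 4.01 at ZT106 and 3.78 and 3.63 at ZT110 FPKM in the apex, with both replicates highest at ZT98 and lowest at ZT110. The summed leaf markers correlated over the 12 apex libraries with PAL3 at 0.819 and with CDSP32 at 0.717; their part in these courses was not tested.

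ERD6 and VSP2 met the rule without a course that the replicates shared. ERD6 (AT1G08930), of a family of sugar transporters, was at 3.41 and 4.55 at ZT90, 6.91 and 4.14 at ZT94, 6.39 and 8.31 at ZT98, 6.59 and 6.47 at ZT102, 7.30 and 2.26 at ZT106 and 3.31 and 5.62 at ZT110 FPKM in the apex, and its replicates correlated at -0.119 over the 6 times. VSP2 (AT5G24770), a vegetative storage protein induced by jasmonate, was at 23.4 and 21.01 at ZT90, 29.9 and 16.2 at ZT94, 52.3 and 18.3 at ZT98, 26.4 and 12.03 at ZT102, 23.9 and 22.3 at ZT106 and 25.5 and 21.5 at ZT110 FPKM. The VSP2 peak at ZT98 rested on replicate 1, and replicate 2 was highest at ZT106. Of 16 jasmonate genes at the floor, JAZ9, a repressor of the pathway, also met the apex ratio at 2.43 with a leaf ratio of 1.66.

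The largest group, 9 members, had its apex peak at ZT102, near the middle of the subjective day, and 2 of them belong to the redox and electron machinery of the chloroplast. TRX-M4 (AT3G15360, chr3:5188241-5189836), an m-type thioredoxin that passes reducing power to chloroplast enzymes, was at 37.7 and 31.3 at ZT90, 34.6 and 34.1 at ZT94, 48.4 and 50.5 at ZT98, 63.6 and 67.7 at ZT102, 61.4 and 62.3 at ZT106 and 42.6 and 44.4 at ZT110 FPKM in the apex. In leaves it was at 310.2 and 324 at ZT90, 271 and 261 at ZT94, 272 and 251 at ZT98, 347 and 316 at ZT102, 359 and 367 at ZT106 and 356 and 371 at ZT110 FPKM. Its leaf ratio of 1.39 was close to the threshold and its leaf replicates moved together, with a correlation of 0.935 and leaf means of 363.1 and 363.3 FPKM at ZT106 and ZT110, the highest. NDF5 (AT1G55370, chr1:20673768-20676449), needed for the NDH complex that carries cyclic electron flow around photosystem I, was at 5.51 and 5.33 at ZT90, 7.36 and 7.08 at ZT94, 7.80 and 8.43 at ZT98, 9.85 and 11.3 at ZT102, 9.33 and 7.81 at ZT106 and 6.27 and 5.36 at ZT110 FPKM in the apex and at 17.7 to 23.97 FPKM in leaves. Both apex replicates of NDF5 were highest at ZT102.

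HB2 (AT3G10520), a class 2 haemoglobin that binds oxygen and nitric oxide, had the highest apex ratio of the protein-coding members, 2.696, at 4.94 and 3.84 at ZT90, 2.85 and 3.56 at ZT94, 4.84 and 4.94 at ZT98, 9.70 and 7.60 at ZT102, 10.2 and 4.89 at ZT106 and 5.55 and 3.57 at ZT110 FPKM. Its replicates peaked at different times, ZT106 and ZT102, and leaf values were 32.6 to 50.7 FPKM. AT5G52960, annotated without a function here, was at 13.7 and 13.3 at ZT90, 16.6 and 17.56 at ZT94, 16.6 and 19.9 at ZT98, 26.3 and 22.5 at ZT102, 21.1 and 18.7 at ZT106 and 17 and 14.7 at ZT110 FPKM in the apex, with both replicates highest at ZT102. The remaining members of the group were AT2G29320 (a NAD(P)-binding Rossmann-fold protein), AT3G05730 (a defensin-like protein), AT5G44600 (a methyltransferase-like protein), AT5G02720 and AT4G36500, with apex ratios of 1.93, 1.85, 1.801, 1.88 and 1.81. The library with the high ribosomal RNA, ZT90 replicate 2, held the lowest apex value of 9 of the 28 members: CDSP32, NDF5, TRX-M4, AT5G52960, RGF9, AT2G29320, AT5G02720, AT4G36500 and AT5G44600. The share of all genes with their lowest apex value there was not counted. The rule also chose on these values, so nothing is read from the 9. In the last 4 members named, that library was at 3.14, 6.398, 5.43 and 4.11 FPKM. ZT90 replicate 1 was at 7.48, 15.6, 10.8 and 6.25 FPKM. Without ZT90 replicate 2, AT2G29320, AT4G36500, AT5G44600, AT5G52960 and RGF9 no longer met the rule; the part of that library in their courses was not tested beyond this.

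The promoters of AT2G29320 and AT3G05730 are shown because they hold the evening element, the letters through which clock MYB factors set evening expression. Capitals mark AAAATATCT on either strand and, in AT2G29320, GATAAG on either strand.
AT2G29320, chr2:12591879-12592178, plus strand: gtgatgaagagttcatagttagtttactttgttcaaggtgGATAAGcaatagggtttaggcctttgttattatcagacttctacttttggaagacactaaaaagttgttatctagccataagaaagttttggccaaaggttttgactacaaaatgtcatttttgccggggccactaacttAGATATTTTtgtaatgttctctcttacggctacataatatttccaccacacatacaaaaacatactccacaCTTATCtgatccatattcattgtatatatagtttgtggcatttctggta
AT3G05730, chr3:1694906-1695205, plus strand: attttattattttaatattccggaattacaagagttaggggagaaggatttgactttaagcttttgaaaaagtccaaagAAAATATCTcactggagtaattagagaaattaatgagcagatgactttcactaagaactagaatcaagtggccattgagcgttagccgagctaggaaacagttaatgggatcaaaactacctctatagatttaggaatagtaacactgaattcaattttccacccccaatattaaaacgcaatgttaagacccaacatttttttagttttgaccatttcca
The element begins 70 bases before the start on the opposite strand in AT2G29320 and 171 bases before it in AT3G05730. It is found in 3.03% of all tested promoters, in 10.0% of the promoters of genes that met the apex ratio, and in 2 of the 26 member promoters searched (7.69%). The apex courses of the 2 genes were noisy: replicates correlated at 0.728 and 0.237.

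At ZT106, toward subjective dusk, the members included the myrosinase genes TGG1 and TGG2, whose enzymes release toxic products from glucosinolates when tissue is damaged and are stored in myrosin cells along the phloem and in guard cells. TGG1 (AT5G26000, chr5:9079452-9082384) was at 139 and 183 at ZT90, 122 and 159 at ZT94, 211 and 206 at ZT98, 149.8 and 264 at ZT102, 236 and 309.9 at ZT106 and 203 and 216 at ZT110 FPKM in the apex. In leaves it was at 1368 and 1385 at ZT90, 1199 and 1292 at ZT94, 1322 and 1253 at ZT98, 1322 and 1346 at ZT102, 1252 and 1405 at ZT106 and 1322 and 1435 at ZT110 FPKM, the flattest leaf course of the 28. TGG2 (AT5G25980, chr5:9072708-9075777) was at 92.5 and 119 at ZT90, 87.2 and 106 at ZT94, 151 and 137 at ZT98, 101 and 179.6 at ZT102, 171 and 210.4 at ZT106 and 139 and 149 at ZT110 FPKM in the apex and at 539 and 447 at ZT90, 486 and 397 at ZT94, 553 and 399.7 at ZT98, 554 and 458 at ZT102, 535 and 455 at ZT106 and 531 and 456 at ZT110 FPKM in leaves. Both genes had ratios close to each other in the 2 replicates, 1.93 and 1.95 for TGG1 and 1.96 and 1.98 for TGG2, although at ZT102 replicate 1 was far below replicate 2.

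TGG1 and TGG2 lie 3674 bases apart on chromosome 5, on opposite strands. Over the 12 apex libraries their correlation was 0.993, and over the 12 leaf libraries -0.0283. In leaves TGG2 was higher in replicate 1 by 0.29 (limma adjusted p = 0.0190), and TGG1 differed by -0.06 (limma adjusted p = 0.647). The leaf value pools these replicate levels, so it does not show whether the 2 genes moved together over time in leaves. In the apex both genes were lower in replicate 1, a difference in level that the 0.993 also holds. The counting of reads shared by such similar genes is not stated, so reads may have been assigned between them; no library had identical values for the 2. Their promoters are shown because they share stretches of sequence: capitals mark runs of at least 12 bases found in both windows.
TGG1, chr5:9082335-9082634, minus strand: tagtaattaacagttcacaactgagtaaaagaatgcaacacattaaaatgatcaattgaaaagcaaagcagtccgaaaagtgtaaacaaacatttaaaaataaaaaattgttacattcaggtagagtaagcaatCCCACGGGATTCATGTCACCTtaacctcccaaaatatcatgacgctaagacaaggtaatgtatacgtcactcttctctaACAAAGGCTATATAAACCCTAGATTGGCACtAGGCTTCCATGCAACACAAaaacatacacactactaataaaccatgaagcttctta
TGG2, chr5:9072458-9072757, plus strand: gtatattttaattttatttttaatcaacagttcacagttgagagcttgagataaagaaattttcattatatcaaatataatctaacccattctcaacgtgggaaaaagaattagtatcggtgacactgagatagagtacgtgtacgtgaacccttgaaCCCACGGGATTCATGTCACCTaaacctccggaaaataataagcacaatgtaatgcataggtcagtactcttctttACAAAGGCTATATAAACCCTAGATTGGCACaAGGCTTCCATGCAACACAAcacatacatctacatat
The shared runs cover 70 of the 300 bases in each window, in 3 runs, and the longest run of 30 bases holds a TATA box just before the annotated start.

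Marker sums of other cell types were set beside the 2 myrosinase genes in the apex. The phloem markers SUC2 and SWEET11 summed to 6.504 to 15.9 FPKM in apex libraries and to 150.3 to 243 in leaves, with SWEET11 at or near 0 in the apex (0 to 0.228), and their apex time means varied 1.52-fold with the highest at ZT106. Over the 12 apex libraries the phloem sum correlated with TGG1 at 0.724 and with TGG2 at 0.669, and the sum of the markers of dividing cells, 109.8 to 157 FPKM in apex libraries, correlated at 0.775 and 0.737. In the apex the phloem sum was higher in replicate 2 at every time, and the dividing cell sum at every time but ZT90. TGG1 and TGG2 were lower in apex replicate 1, by -0.34 and -0.29 (limma adjusted p = 0.0122 and 0.0304). These correlations therefore also hold the difference in level between the replicate numbers. The guard cell marker MYB60 stood at 0.266 to 1.004 FPKM in the apex and correlated at -0.125 with TGG1 and -0.0924 with TGG2. The leaf marker sum correlated at -0.411 and -0.418 and the apex marker sum at -0.621 and -0.626. The part of these cell types in the TGG1 and TGG2 courses was not tested, and in bulk tissue fewer cells of a type and less RNA per cell cannot be told apart.

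Of the 29 glucosinolate genes at the floor, 25 had their highest apex mean at ZT90 to ZT98, BGLU26 at ZT102, and TGG1, TGG2 and ESM1 at ZT106. The share of all genes at the floor with a peak at ZT90 to ZT98 was not counted. Of the 643 genes that met the apex ratio, 6.84%, 19.6% and 19.6% peaked at ZT90, ZT94 and ZT98. The list was chosen with earlier results known, so nothing is read from the 25. Below the floor, MAM3 peaked at ZT106 and MYB51 and CYP81F2 at ZT110, while CYP79F2 peaked at ZT90 and MYB76 and CYP81F4 at ZT98. The apex means of MAM3 and CYP81F2 were only 0.087 and 0.76 FPKM, too low to place a peak, and no difference in timing was tested. Of the 29, 6 met the apex ratio and 4 the leaf ratio, and TGG1 and TGG2 were the 2 that met both. CYP79F1, which starts the aliphatic branch, had an apex ratio of 2.67 with its peak at ZT90 and a leaf ratio of 2.36, and the aliphatic regulator MYB29 had 1.86 with its peak at ZT94 and 1.82 in leaves. ESM1, which steers the breakdown products, shared the ZT106 peak at an apex ratio of 1.6 but had a leaf ratio of 2.03.

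RGF9 (AT5G64770), which encodes a secreted peptide of the root meristem growth factor family, also peaked at ZT106, at 19.2 and 11.9 at ZT90, 22.5 and 24.1 at ZT94, 20.5 and 20.15 at ZT98, 35.7 and 20.4 at ZT102, 40.6 and 27.9 at ZT106 and 37.0 and 19.6 at ZT110 FPKM in the apex. Replicate 1 was the higher at 5 of the 6 times, and leaves ranged from 59.4 to 113 FPKM. AT3G01950, uncharacterized, was at 6.86 to 16.6 FPKM in the apex, with replicates that correlated at only 0.074 over the times.

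TCH3 (AT2G41100), a calmodulin-like protein induced by touch, was the 1 member with its apex peak at ZT110, and that peak rested on 1 library. Its apex values were 7.56 and 10.5 at ZT90, 18.16 and 4.95 at ZT94, 11.8 and 13.1 at ZT98, 12.4 and 15.8 at ZT102, 9.99 and 4.87 at ZT106 and 6.81 and 27.5 at ZT110 FPKM. In leaves they were 199 and 60.1 at ZT90, 205 and 57.97 at ZT94, 181 and 107 at ZT98, 164 and 79.9 at ZT102, 214 and 41.7 at ZT106 and 183 and 88.7 at ZT110 FPKM, so every leaf value of replicate 1 was above every leaf value of replicate 2, and the flat leaf mean averaged courses that correlated at -0.779. Of the 17 touch and rapid stress genes at the floor, 3 met the apex ratio, and TCH3 alone of them also met the leaf ratio.

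The level of a member in the 2 tissues was not used by the rule beyond the floor, and could be tested. The test takes the 24 libraries as independent, but libraries of one replicate number deviated together within a tissue. Their deviations correlated between times at 0.554 to 0.764 in leaves and 0.162 to 0.44 in the apex. The standard errors and p-values of the tissue differences may therefore be too small. Of the 28 members, 16 were higher in leaves, where 21.4% of all tested genes were, and 8 were higher in the shoot apex, where 68.6% of all tested genes were (limma on log2(FPKM + 1), adjusted p under 0.05). The median difference of the members, apex minus leaves, was -0.79 on the log2 scale, beside 0.58 over all 19986 tested genes and 0.44 over the genes at the floor. After rescaling the libraries the median of all genes was 0.01, and 2 members were higher in the apex (RR5 and RFNR2) and 22 in leaves, so counts depend on the scale while 5 of the 28 members lay above the median of all genes on either scale.

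On the deposited scale, the largest differences toward leaves were those of TCH3, -3.31 ± 0.347 (limma adjusted p = 1.50e-07), CDSP32, -2.80 ± 0.0657 (limma adjusted p = 1.72e-15), and TGG1, -2.77 ± 0.0849 (limma adjusted p = 3.17e-14). For all 3 the highest apex library lay below the lowest leaf library. These 3 were picked for their large differences, and the share of all genes without overlap was not counted. With 1 replicate number left out, the TCH3 difference was -4.04 or -2.57. TRX-M4 differed by -2.73 ± 0.0360 (limma adjusted p = 6.62e-18), HB2 by -2.72 ± 0.0999 (limma adjusted p = 2.47e-13) and ERD6 by -2.63 ± 0.202 (limma adjusted p = 2.80e-09). In the apex TCH3 stood at 9.07% of its leaf level, HB2 at 13.7%, CDSP32 at 14.4%, TGG1 at 15.1% and TRX-M4 at 15.2%, above 5 of the 6 leaf markers, which stood at 1.29% (LOX2) to 6.46% (RCA), and below RBCS1A at 16.3%. The summed leaf markers correlated over the 12 apex libraries with AT5G42070 at 0.725, with NDF5 at 0.448, with HB2 at 0.203 and with TRX-M4 at 0.105. The summed apex markers correlated with NDF5 at -0.791, with CDSP32 at -0.737 and with TRX-M4 at -0.73; the part of either list in these courses was not tested.

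The largest differences toward the apex were those of RR5, 1.55 ± 0.0623 (limma adjusted p = 7.65e-13), RFNR2, 1.53 ± 0.0499 (limma adjusted p = 6.21e-14), and AT3G41768, 1.498 ± 0.389 (limma adjusted p = 0.00187). After rescaling AT3G41768 was not called (0.81, limma adjusted p = 0.0656), and without ZT90 replicate 2 its difference was 1.102. The apex and leaf libraries of RR5 and of RFNR2 did not overlap, and here too the share of all genes without overlap was not counted. GLT1 was higher in the apex by 0.69 ± 0.0358 (limma adjusted p = 1.84e-11), with 85.96 ± 20.7 FPKM (SD, n = 12) there and 51.6 ± 4.42 FPKM (SD, n = 12) in leaves, but after rescaling the difference was 0.01 (limma adjusted p = 0.796). ARR4 was higher in the apex by 0.21 ± 0.0475 (limma adjusted p = 5.70e-04) and after rescaling lower, at -0.47. AT1G23040 and AT3G01950, called higher in the apex at 0.36 and 0.53, likewise turned to -0.23 and -0.09 after rescaling. The 4 members that did not pass were ATAF1, AT3G11280, AT5G02720 and AT5G44600, with differences of -0.09, -0.28, -0.15 and 0.14. With a replicate block AT3G11280 was called lower in the apex (limma adjusted p = 0.000713).

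**Figure D4:**
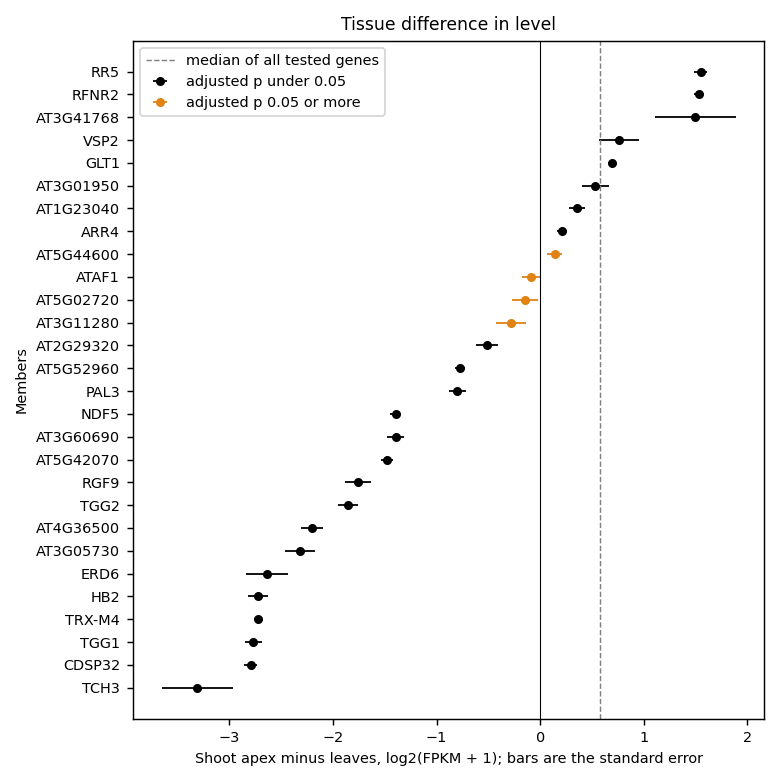
Difference between shoot apex and leaves for each member in log2(FPKM + 1), with the standard error as a bar, black where limma's adjusted p is under 0.05 and orange otherwise. Most members lie left of 0, and 5 lie right of the dashed line, the median of all tested genes at 0.58.

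Whether the apex courses recur could be tested only in a replicate that did not choose the genes. Other genes with a high apex ratio in the choosing replicate were not set beside them. The test therefore does not bear on whether a course is particular to the apex. Genes named below as members were chosen as members on both replicates. The rule applied to replicate 1 alone gave 32 genes, and 8 of these passed the 24 h wave test in the apex libraries of replicate 2, where 3.68% of all tested genes passed. The 8 were GLT1, TRX-M4, TGG1, TGG2, ARR4 and AT5G52960 among the members, and AT4G39780 and AT5G41670. The rule applied to replicate 2 alone gave 73 genes, and 5 of these passed in the apex libraries of replicate 1, where 1.91% of all tested genes passed: GLT1 and AT3G11280 among the members, and AT2G31810, AT4G17560 and AT5G14910. GLT1 was the 1 gene that passed in both directions, at limma adjusted p = 0.0162 in replicate 2 and 0.0259 in replicate 1. With all 6 times, 16 of the 32 and 43 of the 73 had an unadjusted limma p under 0.05. Of genes at the floor, 25.6% and 24.7% did. The counts after adjustment rest on all 6 times. With 1 library of the tested replicate left out, 0 to 2 of the 32 and 0 of the 73 passed. Without adjustment, 15 to 17 and 33 to 46 then had a limma p under 0.05. Of genes at the floor, 16.56% to 23.54% and 17.01% to 21.79% did.

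The apex ratios were smaller in the replicate not used. The median apex ratio of the 32 genes in replicate 2 was 1.78, beside 1.31 over all genes at the floor, and 13 of 32 reached 1.8, where 10.2% of genes at the floor did. For the 73 genes in replicate 1 the median was 1.46, beside 1.25, and 12 of 73 reached 1.8, where 7.16% did. The highest apex time in the 2 replicates lay within 4 h of each other for 24 of 32 and 58 of 73 genes, beside 68.6% of all genes at the floor.

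The share of flat leaf courses in the replicate not used was below that of all genes at the floor in replicate 2 and above it in replicate 1. In the leaf libraries of replicate 2, 12 of the 32 genes passed the wave test, where 28.5% of all tested genes passed, and 11 had a leaf ratio of at most 1.4, where 44.6% of genes at the floor did. In the leaf libraries of replicate 1, 4 of the 73 passed, where 13.8% passed, and 37 had a leaf ratio of at most 1.4, where 46.2% did. All tested genes include those under the floor, which the chosen genes do not. At an unadjusted limma p under 0.05, 17 of the 32 passed in replicate 2, beside 59.8% of genes at the floor. In replicate 1, 29 of the 73 did, beside 43.8%. Genes that met the rule in each replicate number alone were 3: GLT1, TGG1 and TGG2.

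**Figure D5:**
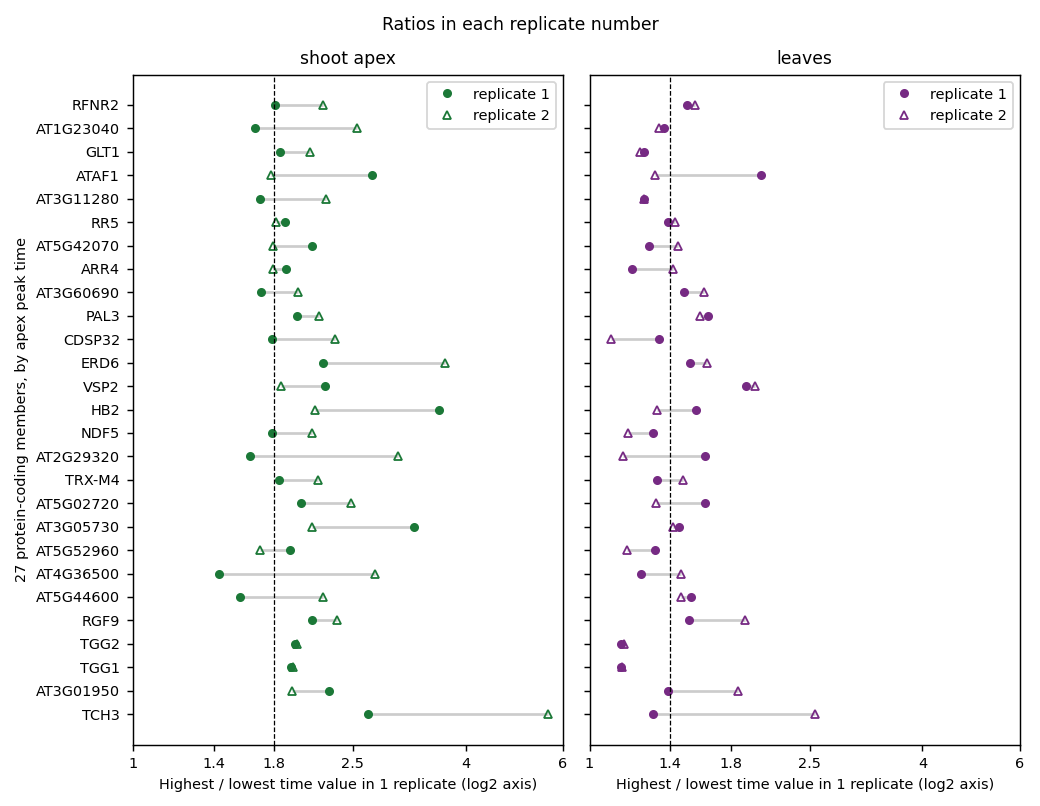
Highest over lowest time value of each protein-coding member in replicate 1 (filled circles) and replicate 2 (open triangles) of the shoot apex (left) and leaves (right), on log2 axes, with the thresholds of 1.8 and 1.4 dashed. In the apex 16 of the 28 members, with the undrawn AT3G41768 among them, reached 1.8 in both replicates, and in leaves 8 of 28 stayed at or under 1.4 in both, with TGG1, TGG2, GLT1 and AT3G11280 among those whose leaf replicates lie closest.

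Levels also differed between the replicate numbers. In the apex 10 of 28 members differed between replicates 1 and 2, where 20.7% of all tested genes did, and in leaves 6 did, where 30.7% did. In 4 members the replicate difference was unequal between the tissues, where 22.5% of tested genes were. AT3G11280 differed in both tissues, by 0.37 ± 0.0798 (limma adjusted p = 0.00706) in the apex and 0.61 ± 0.0798 (limma adjusted p = 4.82e-05) in leaves. TCH3 differed in leaves by 1.45 ± 0.331 (limma adjusted p = 0.00414) and in the apex by -0.03 ± 0.331 (limma adjusted p = 0.965). TGG1 was lower in replicate 1 of the apex, -0.34 ± 0.0823 (limma adjusted p = 0.0122). After rescaling the libraries the count in the apex was 3.

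The 38 lists of pathway and cell type genes held 1330 tested genes, 6.65% of all tested, and 7 of the 28 members. These lists were chosen with earlier results known, so nothing is read from this share. The 7 were GLT1, ARR4, RR5, VSP2, TGG1, TGG2 and TCH3. No clock gene was a member: 12 of 12 morning clock genes and 11 of 14 evening clock genes at the floor met the apex ratio, but of these lists none and 2 met the leaf ratio. Lists of mitosis, DNA replication, histone and ribosome production genes held 0 genes with an apex ratio of 1.8 among 61 at the floor. Of all 10450 genes at the floor, 643 had that ratio. Other lists also held 0, such as auxin among 40 and small RNA and chromatin among 34, and nothing is read from these counts.

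Beyond the elements already shown, the G-box CACGTG was found in the promoters of AT3G60690 and AT5G02720 (8.76% of all tested promoters), GATAAG in those of VSP2, AT2G29320 and AT5G44600 (14.8%), and the site II letters TGGGCC in that of AT5G52960 (19.1%), on either strand. The promoters of ARR4 and RR5 held none of the 5 sets of letters searched. A match is a description of the window, and is not a measured binding site.

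The members next to the thresholds differ little from the genes just outside. Inside the apex ratio lay AT5G44600 (1.801), AT4G36500 (1.81) and AT5G52960 (1.81), and outside it AT4G29310 (1.78), GER1 (1.77) and AT2G36145 (1.77). Inside the leaf ratio lay AT3G41768 (1.399), RFNR2 (1.39) and TRX-M4 (1.39), and outside it GSTF2 (1.41), AT5G41670 (1.44) and AT4G25170 (1.45). At the floor, AT3G60690 (5.14 FPKM), RR5 (5.19) and AT1G23040 (5.203) lay inside in their lower tissue, and AT1G15670 (4.71), MGL (4.47) and AT3G57480 (4.05) outside.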

How the data were processed

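The deposited table holds FPKM per gene and library, made by the authors from single-end 50 bp polyA reads; per the submitters' processing notes, HOMER, STAR 2.5.0c and the TAIR10 build were used, and no settings are given. A gene with a text cell, AT1G73170, was left out. Computed here: time means and ratios on FPKM as deposited; tests on log2(FPKM + 1) for the 19986 genes that reached 1 FPKM in 2 or more libraries, by limma 3.58.1 in R 4.3.3 with trended variances, Benjamini-Hochberg adjustment over all tested genes and a threshold of 0.05. The wave test fitted a cosine and sine of 24 h to 6 times over 20 h, which does not separate a rhythm from any other smooth change. The tests were tried on simulated data first. Fold changes on the log2(FPKM + 1) scale understate changes of low genes. Depth was estimated from FPKM steps, and its counting error is not included in any test.

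The members and lists were chosen with earlier results of these data known. Named genes were the 12 members of highest apex ratio, the 4 of highest apex ratio at each peak time, members on a list, the 3 of largest tissue difference each way, transcription factors and the genes next to each threshold; the other members are named so that each is accounted for. Of 1613 list entries, 1422 loci matched RefSeq names. The promoter of 1 member is not reported here. Alternatives were other thresholds, floors, pseudocounts, filters, library scales and periods, a replicate block, and leaving out libraries or replicates. Python 3.11.15 (numpy 2.4.6, pandas 2.3.3, matplotlib 3.10.9) made the figures.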

Additional observations from a re-analysis of the deposited data

Results flagged for a closer look

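In 4 members the difference between replicates 1 and 2 was not the same in the shoot apex as in leaves, by limma's test of that difference at an adjusted p under 0.05, where 22.5% of all tested genes were called. TCH3 had the largest gap, at -1.47 on the log2(FPKM + 1) scale (adjusted p = 0.0363): its leaf replicate 1 lay above its leaf replicate 2 at all 6 times, and its apex replicates did not pass the test. TGG2 had a gap of -0.58 (adjusted p = 0.00414), being lower in replicate 1 of the apex and higher in replicate 1 of leaves. RR5 had a gap of 0.28 (adjusted p = 0.0281) and AT5G44600 of 0.35 (adjusted p = 0.0401), both higher in replicate 1 of the apex. The labels do not say which experiment a replicate number stands for, so what separates the numbers was not tested.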

How the results depend on the processing

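The number of members moved most with the thresholds and the libraries. It was 86 at an apex ratio of 1.6 and 6 at a ratio of 2, 18 at a leaf ratio of 1.3, 66 at a floor of 1 FPKM and 17 at a floor of 10, and 17 with ratios of time mean + 1; leaving out a library or a replicate number gave 17 to 102. The genes chosen on replicate 2 and passing the wave test in the apex of replicate 1 numbered 0 of 73 without the filter on low values (35 with an unadjusted limma p under 0.05), 19 with a filter of mean FPKM 5, 8 at a period of 22 h, 1 at 26 h and 0 with any 1 library left out. In leaves of replicate 1 they numbered 0 (24 unadjusted), 17, 7 and 2 under those settings, 8 after rescaling and 0 to 2 with a library left out. The genes chosen on replicate 1 and passing in the apex of replicate 2 numbered 0 of 32 without the filter (13 unadjusted), 3 at 26 h and 0 to 2 with a library left out, and in leaves of replicate 2, 2 to 6 with a library left out. A stricter filter leaves fewer genes to adjust over, and a left-out library leaves fewer samples.

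Members higher in the shoot apex numbered 2 after rescaling, 8 to 9 with a library left out and 6 to 9 with a replicate number left out; members higher in leaves numbered 16 to 18 and 17. The tissue difference turned sign after rescaling in AT5G44600 (-0.46), ARR4 (-0.47), AT3G01950 (-0.089) and AT1G23040 (-0.23), without replicate 1 in AT5G44600 (-0.034, against 0.31 without replicate 2) and without replicate 2 in AT5G02720 (0.10, against -0.40 without replicate 1). Without replicate 1, ARR4 and AT3G41768 also lost their calls (limma adjusted p = 0.275 and 0.0898). The members with a replicate difference in the apex numbered 6 without the filter, 3 after rescaling and 4 to 10 with a library left out, those in leaves 3 to 6, and those with unequal differences 2 without the filter and 1 to 5 with a library left out. Apart from the rescaling, in which the median of all genes moves by construction, and the filter and left-out libraries above, the cause of these changes was not tested.

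Libraries of the 2 tissues with the same time and number deviated together at correlations of 0.0528 to 0.316 (median 0.195), not all over 0.1, so the numbers were not taken as pairs. Between times within a tissue, libraries of one number correlated at 0.554 to 0.764 in leaves and 0.162 to 0.44 in the apex, so libraries of one number deviated together within a tissue. With a replicate block, 8 members were higher in the apex and 17 in leaves, AT3G11280 being the 1 added call. Low counts, with 24.7 estimated reads at the lowest, limit the precision of the weakest apex ratios.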
